A study of Mus musculus with 6 samples.

Results

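The genes of the platelet-derived growth factor (PDGF) family were followed in NIH/3T3 cells, an established fibroblast line derived from mouse embryos. The 6 members, the ligand genes Pdgfa, Pdgfb, Pdgfc and Pdgfd and the receptor genes Pdgfra and Pdgfrb, were taken by matching gene identifiers to mouse symbols, and were 6 of the 54752 genes in the count table. There were 3 groups of 2 libraries, each from cells treated for 72 h. The first group received vehicle, which the labels give as PBS. The second received TGF-β1 at 1 ng/ml together with DMSO, the solvent of the inhibitor. The third received TGF-β1 at 1 ng/ml together with BI6727 at 5 μM, an inhibitor of the mitotic kinase PLK1. Because vehicle held no DMSO according to the labels, an effect of TGF-β1 and an effect of DMSO against vehicle cannot be told apart. All libraries came from 1 established cell line. The labels do not say that the replicates were separate cultures. The methods give 2 replicates per group, which matches the labelled libraries. They also speak of 3 biological replicates for 2 groups of cells, which does not. The p-values below then measure the spread between these libraries, which may be technical.

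PDGF ligands are disulphide-linked dimers that drive growth and migration of fibroblasts and other mesenchymal cells. PDGF-A and PDGF-B are cut to their active form inside the cell by furin-like proteases, whereas PDGF-C and PDGF-D are secreted with a CUB domain that proteases outside the cell remove. The ligands pair receptor tyrosine kinases on the cell surface: PDGF receptor α binds the A, B and C chains, and receptor β binds the B and D chains. In fibrosis, TGF-β1 turns fibroblasts into contractile myofibroblasts that make α-smooth muscle actin, and PDGF signalling is best known there for expanding the fibroblast population.

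Stretches before RefSeq transcription starts of the ligand gene that rose with TGF-β1 (Pdgfa), the receptor gene that fell (Pdgfra) and the ligand gene that did not pass the test (Pdgfc) are shown so that they can be read beside the expression values. RefSeq windows (GRCm38.p6, the build of the counts) were used for 4 of the 6 members, and no window of the other members was examined. Capitals mark matches, on either strand, to the GC box GGGCGG, the SMAD box CAGAC and the AP-1 site TGANTCA. For Pdgfa, the first piece ends where the first Gencode exon within the window begins, and the second is the short stretch with both GC boxes, which lie in that exon. Longer Gencode transcripts of Pdgfa start further upstream, so both pieces lie inside the annotated span of the gene, and the first lies in an intron of those transcripts. All are written 5′ to 3′ on the strand of the gene.
Pdgfa, chr5:138995038-138995194, minus strand: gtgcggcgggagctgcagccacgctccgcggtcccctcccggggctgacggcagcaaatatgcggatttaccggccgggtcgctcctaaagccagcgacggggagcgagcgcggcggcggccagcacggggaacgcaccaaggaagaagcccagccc
Pdgfa, chr5:138995018-138995044, minus strand: ccagcccCCGCCCtCCGCCCcttccgt
Pdgfra, chr5:75152001-75152250, plus strand: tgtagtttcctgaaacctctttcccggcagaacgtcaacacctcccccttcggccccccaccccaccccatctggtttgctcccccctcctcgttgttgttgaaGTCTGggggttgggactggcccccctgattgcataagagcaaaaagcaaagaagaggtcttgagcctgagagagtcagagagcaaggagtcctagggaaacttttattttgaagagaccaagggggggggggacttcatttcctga
Pdgfc, chr3:81036166-81036415, plus strand: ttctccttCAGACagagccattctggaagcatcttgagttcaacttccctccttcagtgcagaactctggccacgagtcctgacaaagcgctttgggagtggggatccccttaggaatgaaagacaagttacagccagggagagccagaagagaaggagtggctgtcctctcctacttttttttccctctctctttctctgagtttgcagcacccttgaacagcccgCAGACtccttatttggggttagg

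In the 250 bases before the RefSeq start used for the pieces shown, Pdgfa held 72.4% G and C, against 54.4% for Pdgfra, 50.8% for Pdgfc and a median of 52.4% over all 32851 windows of this length. Pdgfa had 2 GC boxes and no SMAD box in this window. The first lay 93 to 88 bases and the second 86 to 81 bases before the start. A window before another RefSeq start of Pdgfa (chr5:138994282-138994531, not shown) held 66.4% G and C and 1 GC box, 60 to 55 bases before that start. Pdgfra had 1 SMAD box, 146 to 142 bases before the start, and Pdgfc had 2. None of these windows held an AP-1 site, and none of these matches overlapped another. Of all windows, 32.7% held a GC box, 42.2% a SMAD box and 6.75% an AP-1 site, so each match is a description of the letters and does not show that a factor binds there.

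Libraries held 18362378 to 24452153 counts on genes. Genes with at least 10 CPM, read counts scaled by library size, in more than 3 libraries were tested, which left 9518. Acta2, which encodes α-smooth muscle actin, was at 92.1 and 100.2 normalized CPM in vehicle, 476 and 473 with TGF-β1 and DMSO, and 348 and 326 with TGF-β1 and BI6727. It rose by 2.30 on the log2 scale between vehicle and TGF-β1 with DMSO. Tagln, another contractile gene, had at most 1.59 normalized CPM in a library and was not tested. Other genes overlap 67.9% of its exonic length, so its count says little. All 8 fibroblast markers passed the filter, with Vim between 4014 and 5126 normalized CPM and their summed level between 7902 and 10401. Of 9 markers of epithelium, endothelium and leukocytes, 0 passed, and the highest value was 3.09 normalized CPM. Among the mural cell markers, Cspg4 lay between 56.9 and 213 normalized CPM and the other 3 were at or under 1.91, so that pericyte and smooth muscle genes such as Rgs5 and Myh11 were close to 0. The replicates of the DMSO group stood apart from each other: the SD over genes of their log2 difference was 0.377, against 0.163 for vehicle and 0.147 for BI6727. Long genes were low in DMSO replicate 2. At the length of Pdgfra its trend on gene length was -0.26 on the log2 scale, at that of Pdgfrb -0.073 and at that of Pdgfa 0.073. The log2 fold changes of the receptor genes are therefore also given with the length trend of every library removed, and those that use the DMSO group without each DMSO library. The TPM sums and the ratio of ligand to receptor TPM further on are not corrected for these trends.

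Of the 4 members tested, 1 rose (Pdgfa) and 1 fell (Pdgfra) with TGF-β1 and DMSO against vehicle. Rises and falls are those with a fold change above 2 and a p below 0.01 from edgeR's quasi-likelihood test, adjusted by Benjamini-Hochberg over all genes tested. Over all genes tested, 2.56% were called higher and 2.53% lower. Pdgfb and Pdgfd had at most 2 counts in a library and were not tested. With TGF-β1 and BI6727 against vehicle, Pdgfa again rose, and both receptor genes fell, where 2.34% of all genes were called higher and 2.96% lower. Both comparisons share the vehicle libraries and are not independent. In these bulk libraries, fewer cells that express a gene and less of its RNA per cell cannot be told apart. Between BI6727 and DMSO under TGF-β1, 0% of all genes were called higher and 0% lower by edgeR, and 0 of the 4 members. Over all genes, 636 had an unadjusted p below 0.05 in that comparison, 0 of them members, and DESeq2 called 0 higher and 11 lower, of which no member. At an adjusted p below 0.05 with no minimum for the fold change, 2 members differed between TGF-β1 with DMSO and vehicle, where 23.0% of all genes did. Pdgfrb lay near this limit, at an edgeR adjusted p of 0.0540. Its adjusted p was 0.00882 with DESeq2, and with edgeR 0.0480 after filterByExpr and 0.109 with the compared groups fitted alone. By that rule 3 members differed between TGF-β1 with BI6727 and vehicle, against 24.5% of all genes, and 0 members and 0% of all genes between BI6727 and DMSO.

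**Figure D1:**
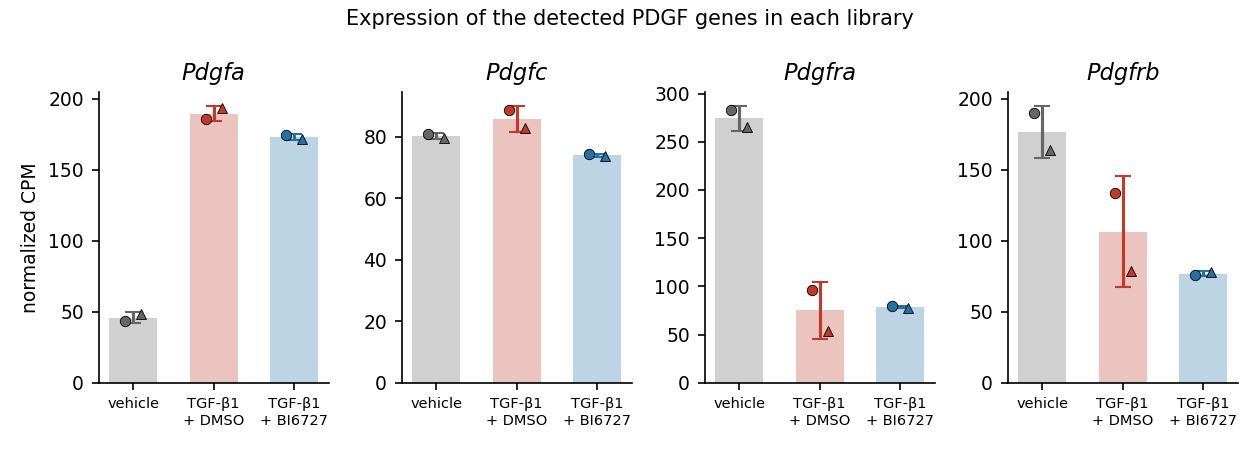
Normalized CPM (vertical axes, linear, each from 0) of the 4 detected PDGF genes in each library, with replicate 1 as circles and replicate 2 as triangles. Bars are group means and error bars SD (n = 2). For Pdgfa, the libraries with TGF-β1 lie between 172 and 193 and the vehicle libraries at 43.3 and 48.7; the DMSO replicates of both receptor genes lie far apart.

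Pdgfa (ENSMUSG00000025856.15, chromosome 5, 138976014 to 138997370, minus strand) encodes the PDGF-A chain, a ligand of receptor α. It was at 43.3 and 48.7 normalized CPM in vehicle. It was at 186 and 193 with TGF-β1 and DMSO, and at 175 and 172 with TGF-β1 and BI6727. All 4 libraries with TGF-β1 lay above both vehicle libraries, and the DMSO libraries lay above the BI6727 libraries by less than the distance to vehicle. The group means were 46.0 ± 3.84, 189.6 ± 5.48 and 173 ± 2.15 normalized CPM (SD, n = 2). Against vehicle, Pdgfa was thus 4.12-fold higher in the DMSO group, with a log2 fold change of 2.04 (SE 0.10, 95% confidence interval 1.81 to 2.28, edgeR adjusted p = 4.14e-05). With TGF-β1 and BI6727 it was 3.77-fold higher than with vehicle (log2 fold change 1.91, SE 0.10, edgeR adjusted p = 5.51e-05).

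The log2 fold change of Pdgfa between BI6727 and DMSO was -0.13 (95% confidence interval -0.36 to 0.097, edgeR adjusted p = 0.838), so a fall of more than 0.36 and a rise of more than 0.097 lie outside the interval. The rise against vehicle kept its call under each of the 14 alternatives run in both comparisons, with log2 fold changes of 1.95 to 2.13 for DMSO and 1.83 to 2.00 for BI6727. Pdgfa shares 26.1% of its exonic length with 6330403L08Rik, a gene on the opposite strand. How the counting treated strand is not given in the sources used here, so reads from the shared part cannot be assigned with certainty. The opposite-strand gene was at 16.8 and 16.7 normalized CPM in vehicle, 28.6 and 16.3 with DMSO, and 17.7 and 13.9 with BI6727. Its highest value was in DMSO replicate 1, and the other libraries with TGF-β1 lay near vehicle. Whether these counts include reads from the shared part is not known, and the part of this gene in the rise of Pdgfa was not tested.

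Pdgfc (ENSMUSG00000028019.9, chromosome 3, 81036416 to 81214040, plus strand) encodes the PDGF-C chain, which also binds receptor α. Its levels were 81.0 and 79.6 normalized CPM in vehicle, 88.9 and 82.9 with TGF-β1 and DMSO, and 74.3 and 73.7 with TGF-β1 and BI6727. The distances between the groups were small. The group means were 80.3 ± 0.935, 85.9 ± 4.26 and 74.0 ± 0.416 normalized CPM (SD, n = 2). The log2 fold change of TGF-β1 with DMSO against vehicle was 0.097 (95% confidence interval -0.12 to 0.32, edgeR adjusted p = 0.474). That of BI6727 against DMSO was -0.21 (95% confidence interval -0.43 to 0.0056, edgeR adjusted p = 0.745), and that of TGF-β1 with BI6727 against vehicle was -0.12 (95% confidence interval -0.34 to 0.10, edgeR adjusted p = 0.405). None of these passed the test, and in both comparisons with vehicle the interval leaves out a change as large as that of Pdgfa.

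Pdgfb (ENSMUSG00000000489.7, chromosome 15, 79995874 to 80014977, minus strand) encodes the PDGF-B chain, which binds both receptors, and Pdgfd (ENSMUSG00000032006.15, chromosome 9, 6168584 to 6378850, plus strand) the PDGF-D chain, a ligand of receptor β. Pdgfb had 0 counts in the vehicle and DMSO libraries and 2 counts in each BI6727 library. Pdgfd had 0 counts in all 6 libraries. A count of 0 allows up to 3 counts, or 0.123 to 0.163 CPM, so Pdgfd was not detectable at this depth. The counts of Pdgfb with BI6727 lay under that floor of 3, and no fold change is given for either gene. These limits cover counting error only.

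Pdgfra (ENSMUSG00000029231.15, chromosome 5, 75152292 to 75198215, plus strand) encodes receptor α, the receptor of the PDGF-A and PDGF-C chains. It was at 283 and 265 normalized CPM in vehicle. It was at 96.3 and 54.2 with TGF-β1 and DMSO, and at 79.6 and 77.9 with TGF-β1 and BI6727. All 4 libraries with TGF-β1 lay below both vehicle libraries, and the DMSO libraries lay on either side of the BI6727 libraries. The group means were 274 ± 13.0, 75.2 ± 29.8 and 78.7 ± 1.23 normalized CPM (SD, n = 2). Against vehicle, Pdgfra was 3.65-fold lower in the DMSO group (log2 fold change -1.87, SE 0.24, 95% confidence interval -2.43 to -1.31, edgeR adjusted p = 0.00195). With TGF-β1 and BI6727 it was 3.48-fold lower than with vehicle (log2 fold change -1.80, SE 0.24, edgeR adjusted p = 0.00213).

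The size of this fall depended on the DMSO library. Without DMSO replicate 1 the log2 fold change of Pdgfra against vehicle was -2.35, and without DMSO replicate 2 it was -1.50. It was called in both fits, in which the lone DMSO library is assumed to vary like the other groups. With the length trends removed, Pdgfra was at 269 and 247 normalized CPM in vehicle, 91.3 and 64.9 with DMSO, and 80.4 and 76.4 with BI6727, and its log2 fold change was -1.72 (edgeR adjusted p = 1.13e-05). The call was lost without vehicle replicate 1 (-1.82, edgeR adjusted p = 0.0344) and without vehicle replicate 2 (-1.91, edgeR adjusted p = 0.0262). In the comparison of TGF-β1 with BI6727 and vehicle, it was lost when any library of either group was left out, at adjusted p from 0.0265 to 0.0358, and was kept without either DMSO library. With length trends removed it was -1.72 there as well (edgeR adjusted p = 1.03e-05).

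Receptor α also marks fibroblasts, and some other fibroblast markers were lower with TGF-β1. Ddr2, a collagen receptor gene, was at 165 and 170.5 normalized CPM in vehicle, 85.7 and 60.0 with DMSO, and 72.3 and 77.5 with BI6727. Thy1, a surface glycoprotein gene, was at 194 and 168 in vehicle, 97.0 and 96.2 with DMSO, and 91.0 and 89.5 with BI6727. S100a4 was at 22.0 and 20.9 in vehicle, 7.48 and 13.8 with DMSO, and 10.96 and 7.49 with BI6727. Gm42674 overlaps 51.7% of the exonic length of S100a4, so its count is uncertain. In Ddr2, Thy1 and S100a4, and also in Col1a2, all libraries with TGF-β1 lay below both vehicle libraries. The share of all genes separated in this way was not counted, so this is not shown to be particular to the markers. With DMSO against vehicle, 5 of the 8 markers and 37.8% of all genes tested had an unadjusted edgeR p below 0.05. Of all genes tested, 2.56% were called higher and 2.53% lower there. Vim went the other way, at 4014 and 4182 normalized CPM in vehicle, 4846 and 5126 with DMSO, and 4477 and 4481 with BI6727. In Col1a1, Col3a1 and Fn1 the libraries with TGF-β1 did not all lie on the same side of vehicle. Of the 8 fibroblast markers, 0 rose and 1 fell with DMSO (Ddr2, log2 fold change -1.20, edgeR adjusted p = 0.00254), and 0 rose and 2 fell with BI6727 against vehicle (Ddr2, -1.16, and Thy1, -1.003). The call of Ddr2 with DMSO was lost without either vehicle library, without DMSO replicate 2, and when the compared groups were fitted alone. With BI6727, both calls were lost without vehicle replicate 1 and without either BI6727 library. That of Ddr2 was also lost without vehicle replicate 2, and that of Thy1 with filterByExpr and with no filter on low counts. The summed level of the 8 markers was 8472 and 8201 normalized CPM in vehicle, 10401 and 7902 with DMSO, and 8318 and 8360 with BI6727, so that the groups overlapped. The part of these markers in the fall of Pdgfra was not tested.

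The effect of BI6727 on Pdgfra under TGF-β1 had no fixed direction. Against both DMSO libraries the log2 fold change was 0.066 (95% confidence interval -0.48 to 0.61, edgeR adjusted p = 0.963). Against DMSO replicate 2 alone it was 0.54, and against DMSO replicate 1 alone -0.30. With length trends removed, it was 0.0027.

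Pdgfrb (ENSMUSG00000024620.11, chromosome 18, 61045150 to 61085061, plus strand) encodes receptor β, whose ligands are the B and D chains. It was at 189.5 and 164 normalized CPM in vehicle. It was at 134 and 78.8 with TGF-β1 and DMSO, and at 75.6 and 78.2 with TGF-β1 and BI6727. Every library with TGF-β1 lay below both vehicle libraries, but DMSO replicate 1 was closer to vehicle than the other three were. The group means were 177 ± 18.3, 106 ± 38.9 and 76.9 ± 1.81 normalized CPM (SD, n = 2). The log2 fold change of TGF-β1 with DMSO against vehicle was -0.73 (SE 0.22, 95% confidence interval -1.26 to -0.21, edgeR adjusted p = 0.0540), which did not pass the test. With TGF-β1 and BI6727, Pdgfrb fell 2.30-fold against vehicle (log2 fold change -1.20, SE 0.23, 95% confidence interval -1.73 to -0.67, edgeR adjusted p = 0.00930).

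DMSO replicate 1 decided the call of Pdgfrb against vehicle. Without it the log2 fold change was -1.17 and was called. Without DMSO replicate 2 it was -0.39 and was not called, since the fold change was under 2. In both fits the lone DMSO library is assumed to vary like the other groups. With length trends removed, Pdgfrb was at 186 and 160 normalized CPM in vehicle, 132 and 82.9 with DMSO, and 76.1 and 77.9 with BI6727, so that its DMSO replicates stayed apart. The log2 fold change was then -0.68 for DMSO against vehicle (edgeR adjusted p = 0.0143). The fall with TGF-β1 and BI6727 was -1.17 on that scale (edgeR adjusted p = 0.000735). Its call was lost when any vehicle or BI6727 library was left out. The call was kept without either DMSO library. It was also kept with vehicle and BI6727 fitted alone (log2 fold change -1.20, SE 0.076, edgeR adjusted p = 6.93e-11). Receptor β also marks mural cells. The summed level of the 4 mural markers was 59.0 and 75.3 normalized CPM in vehicle, 215 and 123 with DMSO, and 169.6 and 184 with BI6727, nearly all of it Cspg4. Rgs5 went the other way, with 17 and 32 counts in vehicle and 2 in each library with TGF-β1, and Des and Myh11 did not rise above vehicle. The sum therefore follows 1 gene and not the list. It was higher in all 4 libraries with TGF-β1 than in vehicle. Between the DMSO replicates it was higher in replicate 1, where Pdgfrb was higher too. Its part in the result was not tested.

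Between BI6727 and DMSO, the log2 fold change of Pdgfrb was -0.47 (SE 0.23, edgeR adjusted p = 0.747). It was -0.81 against DMSO replicate 1 alone and -0.032 against DMSO replicate 2 alone. With length trends removed it was -0.48 (edgeR adjusted p = 0.376). That Pdgfrb passed the test against vehicle with BI6727 and not with DMSO does not show that the inhibitor lowered it, since the direct comparison did not pass.

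**Figure D2:**
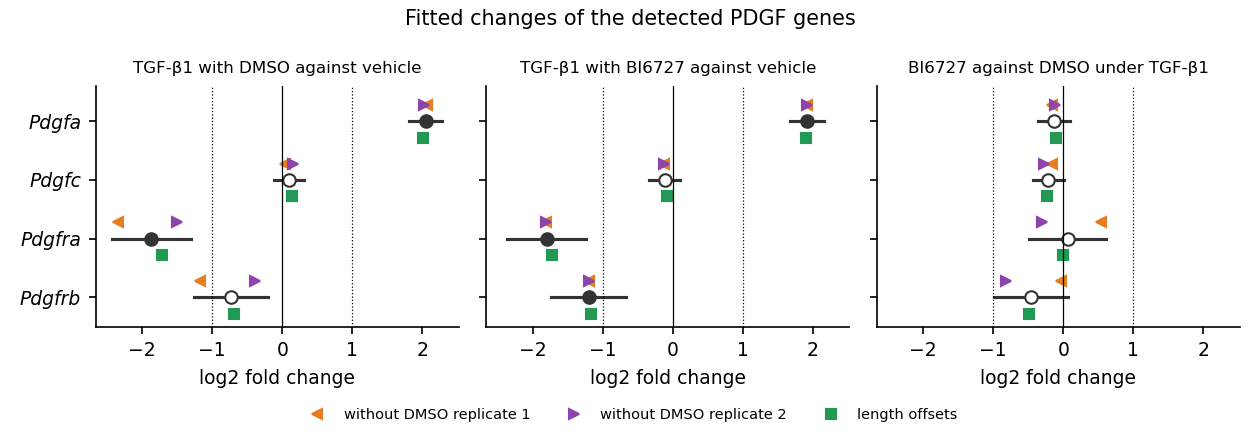
Log2 fold changes (horizontal axes) of the detected PDGF genes in the 3 comparisons. Circles with lines are edgeR estimates with 95% confidence intervals, filled where called; triangles leave out 1 DMSO library, squares remove the length trends, and dotted lines mark a 2-fold change. Pdgfa stays near 2.04 and 1.91 against vehicle, while the receptor genes move with the DMSO library used, for Pdgfra from -2.35 to -1.50.

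To compare the genes with each other, counts were divided by exonic length and scaled to a common total in each library (TPM). That length covers all annotated exons of a gene, 10024 bases for Pdgfra and 5478 for Pdgfrb, and not the transcripts expressed. The order of the genes and the level of the ratios below depend on it. In normalized CPM, Pdgfra lay above Pdgfrb in vehicle (274 against 177). Of the length of Pdgfa, 26.1% is shared with another gene. In vehicle, the order was Pdgfrb (63.3 ± 7.04 TPM, SD, n = 2), Pdgfra (53.7 ± 2.97), Pdgfc (31.0 ± 0.605) and Pdgfa (28.9 ± 2.19). The libraries of Pdgfrb (58.3 and 68.3) lay above those of Pdgfra (51.6 and 55.8), and Pdgfc and Pdgfa differed by less than the SD of Pdgfa in this group. With TGF-β1 and DMSO, Pdgfa came first at 121 and 96.8 TPM. Pdgfrb followed at 49.8 and 22.4 TPM, Pdgfc at 35.6 and 25.4, and Pdgfra at 19.6 and 8.43. In that group Pdgfrb overlapped Pdgfc, and Pdgfa stood above all other members in both libraries. With TGF-β1 and BI6727, Pdgfa was at 101 and 104 TPM, Pdgfc at 26.3 and 27.4, Pdgfrb at 24.9 and 27.0, and Pdgfra at 14.3 and 14.7, and the ranges of Pdgfc and Pdgfrb overlapped. Pdgfb did not exceed 0.0482 TPM. These levels are descriptions, with no test between genes.

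The order of ligand and receptor transcripts changed. Together the ligand genes were at 58.8 and 61.0 TPM in vehicle, 157 and 122 with TGF-β1 and DMSO, and 128 and 132 with TGF-β1 and BI6727. The receptor genes together were at 124 and 109.9 TPM in vehicle, 69.4 and 30.9 with DMSO, and 39.2 and 41.7 with BI6727. The ratio of ligand to receptor TPM within a library was 0.474 and 0.555 in vehicle, 2.26 and 3.96 with DMSO, and 3.25 and 3.16 with BI6727. Receptor transcripts were the more abundant in both vehicle libraries, and ligand transcripts in all 4 libraries with TGF-β1.

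Pdgfa made up 46.6% and 49.9% of ligand TPM in vehicle, 77.3% and 79.2% with DMSO, and 79.3% and 79.2% with BI6727. This share was close between replicates, the DMSO libraries included. Within a library the ratio of Pdgfrb to Pdgfra was 1.22 and 1.13 in vehicle, 2.54 and 2.66 with TGF-β1 and DMSO, and 1.74 and 1.84 with TGF-β1 and BI6727. The 3 groups did not overlap in this ratio, and the DMSO replicates, which were apart in each receptor gene, were close in the ratio of both. With length trends removed the ratios were 1.26 and 1.18, 2.65 and 2.34, and 1.73 and 1.86, in the same order of groups. For each pair of groups the exact permutation test (two-sided, 2 libraries against 2) gave p = 0.333 for this ratio, the smallest it can give, so that 2 libraries against 2 cannot reach the threshold by that test.

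**Figure D3:**
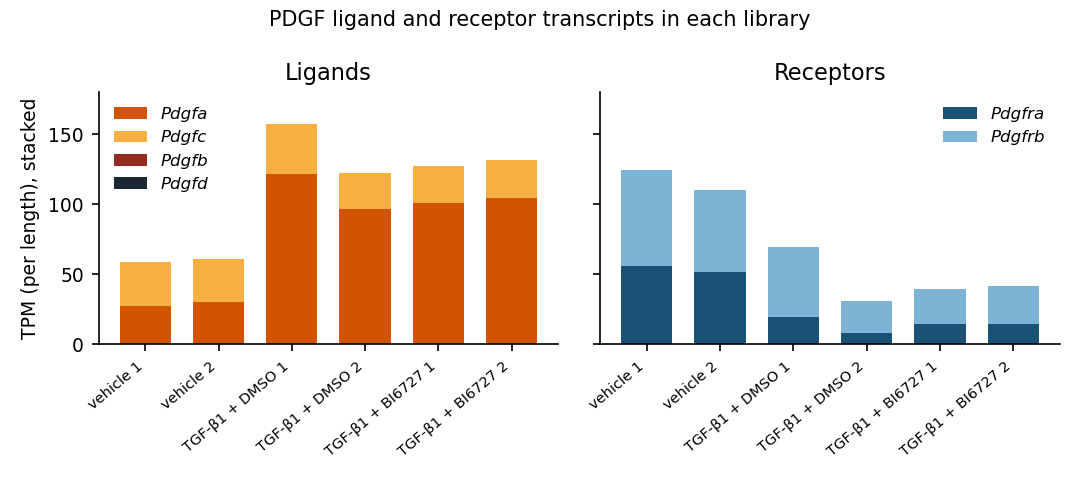
TPM (vertical axis, per length, stacked) of the PDGF ligand genes (left) and receptor genes (right) in each of the 6 libraries. Pdgfa fills 77.3% to 79.3% of the ligand bars with TGF-β1 and 46.6% and 49.9% in vehicle; Pdgfb and Pdgfd are too low to be seen.

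Genes were also ranked by how closely their log2 CPM followed each member over the 6 libraries, each gene centred on its own mean, by root mean square distance among 8844 genes with a name. This is a description, since the libraries share their treatments. Nearest to Pdgfa were Dyrk3, a protein kinase gene (distance 0.067), Nupr1, a stress-response gene (0.092), and Plaur, the receptor of urokinase (0.106). Plaur was at 79.5 and 81.6 normalized CPM in vehicle, 272 and 347 with DMSO, and 301 and 299 with BI6727. Nearest to Pdgfc were Prpsap1 (0.032), Fstl1 (0.034) and Sept8 (0.035), 3 genes that, like it, moved little. Nearest to Pdgfra were Il6st, the shared receptor chain of the interleukin 6 family (0.062), Nid1, which encodes the basement membrane protein nidogen (0.081), and Ppp1r12b, a myosin phosphatase subunit (0.098). Il6st was at 389 and 358 normalized CPM in vehicle, 123 and 74.5 with DMSO, and 97.7 and 106 with BI6727. It had the same high and low DMSO libraries as Pdgfra. Nearest to Pdgfrb were the collagen gene Col1a2 (0.075), Lox, which encodes the enzyme that crosslinks collagen (0.120), and Nfib, a transcription factor gene (0.124). Col1a2 was at 1958 and 1724 normalized CPM in vehicle, 1440 and 872 with DMSO, and 918 and 859 with BI6727.

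The close relatives of the PDGF receptors and their ligands were mostly undetected or under the filter. Kit lies 376700 bases from Pdgfra on chromosome 5 and had 0 counts in all libraries. Csf1r lies 20510 bases from Pdgfrb on chromosome 18 and had 19 to 47 counts, and Hmgxb3 overlaps 17.8% of its exonic length. Of the 8 genes in this list, 3 were tested, all ligands. With TGF-β1 and DMSO, Il34, a ligand of the Csf1 receptor, rose from 8.31 and 10.1 normalized CPM in vehicle to 19.1 and 24.2 (log2 fold change 1.23, edgeR adjusted p = 0.00348). Kitl, the ligand of Kit, fell from 451 and 509 to 191 and 179 normalized CPM (log2 fold change -1.38, edgeR adjusted p = 0.000203). Csf1 had a log2 fold change of -0.65 and was not called. Il34 rose and Kitl fell also with TGF-β1 and BI6727 against vehicle. The call of Il34 was lost in both comparisons without either vehicle library and without either BI6727 library, and with DMSO also when the 2 groups were fitted alone. That of Kitl with BI6727 was lost without vehicle replicate 2 and without either BI6727 library.

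Of 10 genes for proteins that cut PDGF precursors or bind PDGF or its receptors outside the cell, 7 were tested. With TGF-β1 and DMSO 3 rose, 0 fell and 4 were not called, where 2.56% of all genes tested were called higher and 2.53% lower. The median log2 fold change was 0.044, against -0.0045 over all genes. Furin, the protease that cuts the PDGF-A precursor, was at 145 and 137 normalized CPM in vehicle, 351 and 263 with DMSO, and 287 and 282 with BI6727. Its log2 fold change with DMSO was 1.12 (SE 0.14, edgeR adjusted p = 0.00190). Plau, which encodes urokinase, a protease that can cut PDGF-D, was at 12.5 and 15.4 normalized CPM in vehicle, 36.2 and 45.6 with DMSO, and 31.3 and 32.5 with BI6727 (log2 fold change with DMSO 1.55, edgeR adjusted p = 0.00101). Plat, which encodes the protease that activates PDGF-C, did not pass the test (log2 fold change 0.044, edgeR adjusted p = 0.846). Thbs1, which encodes the matrix protein thrombospondin 1, rose from 92.1 and 66.1 to 385 and 244 normalized CPM (log2 fold change 1.99, edgeR adjusted p = 0.00143). Sparc, a matrix protein that binds PDGF, had a log2 fold change of -0.86 with DMSO, under the 2-fold limit, and fell with BI6727 against vehicle (-1.17, edgeR adjusted p = 0.00122). With BI6727 against vehicle, Furin (1.01), Plau (1.19) and Thbs1 (1.43) rose as well. Without either vehicle library, 0 genes of this list were called in either comparison, nor with BI6727 without either BI6727 library, and without DMSO replicate 1 there were 2 higher (Plau, Thbs1) and 3 lower (Sparc, Lrp1, Nrp1) with DMSO.

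Among 19 genes for enzymes and adaptors that bind activated PDGF receptors, all were tested, and 0 rose and 1 fell with TGF-β1 and DMSO. The median log2 fold change was 0.11, and 8 of the 19 had an unadjusted p below 0.05, as did 37.8% of all genes. Pik3r1, the regulatory subunit of phosphoinositide 3-kinase, was at 134.3 and 134.2 normalized CPM in vehicle, 46.9 and 33.0 with DMSO, and 41.7 and 42.4 with BI6727. It fell by 1.75 on the log2 scale with DMSO (edgeR adjusted p = 0.000502) and fell by 1.67 with BI6727 (edgeR adjusted p = 0.000565) against vehicle. Its call was lost in both comparisons without either vehicle library, and with BI6727 without either BI6727 library. The adaptor Nck2 had the next smallest p with DMSO (log2 fold change 0.62, edgeR adjusted p = 0.0176), and the Src family kinase Fyn with BI6727 (0.44, edgeR adjusted p = 0.0193). Apart from Pik3r1, the log2 fold changes with DMSO lay between -0.38 (Pik3ca, a catalytic subunit of phosphoinositide 3-kinase) and 0.62 (Nck2). The kinase gene Src was at 0.43 (edgeR adjusted p = 0.0222).

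Of 7 genes for phosphatases and ubiquitin ligases that act on PDGF receptors, 5 were tested and 0 called by edgeR in any of the 3 comparisons, and 0 by DESeq2. At an unadjusted p below 0.05 there were 2 of the 5 with DMSO against vehicle, where 37.8% of all genes had one, 0 with BI6727 against DMSO, against 6.68%, and 2 with BI6727 against vehicle, against 37.7%. The smallest p with DMSO belonged to the ubiquitin ligase gene Cblb, which was at 21.5 and 27.2 normalized CPM in vehicle, 44.4 and 29.0 with DMSO, and 42.5 and 43.5 with BI6727. Its log2 fold change was 0.59 with DMSO (edgeR adjusted p = 0.0893) and 0.82 with BI6727 (edgeR adjusted p = 0.0317) against vehicle. The phosphatase gene Ptpn1 followed with DMSO (log2 fold change -0.25, edgeR adjusted p = 0.120), and the phosphatase gene Ptpn12 with BI6727 (0.33, edgeR adjusted p = 0.109).

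Of 17 genes that PDGF or serum induces early in fibroblasts, 15 were tested. With TGF-β1 and DMSO against vehicle, 2 rose and 3 fell, where 2.56% of all genes tested were called higher and 2.53% lower. The median log2 fold change was 0.11. Ptgs2, the inducible cyclooxygenase, was at 125.2 and 125.6 normalized CPM in vehicle, 426 and 432 with DMSO, and 477 and 477 with BI6727 (log2 fold change with DMSO 1.77, edgeR adjusted p = 4.55e-05). The transcription factor gene Egr2 rose from 4.52 and 3.41 to 26.5 and 20.99 normalized CPM (log2 fold change 2.58, edgeR adjusted p = 0.000324). The genes that fell were the chemokines Ccl2 (-1.19), Ccl7 (-1.94) and Cxcl1 (-2.08). Ccl7 was at 329 and 296 normalized CPM in vehicle, 75.7 and 86.5 with DMSO, and 53.2 and 41.7 with BI6727. Jun, Myc and Egr1 had log2 fold changes of -0.075, -0.21 and 0.031 with DMSO and did not pass the test. The same 5 genes were called in the same directions with BI6727 against vehicle, where 2.34% of all genes tested were called higher and 2.96% lower. Without vehicle replicate 1, Ccl2 and Cxcl1 were not called with DMSO, and without vehicle replicate 2, Egr2 and Ccl2 were not. With BI6727 against vehicle, Egr2 was not called without either vehicle library or BI6727 replicate 2, nor Cxcl1 without either BI6727 library.

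Between BI6727 and DMSO, 0 genes of any of these lists were called by edgeR or by DESeq2, and 9 of 49 tested had an unadjusted p below 0.05, against 6.68% of all genes. The smallest p among them belonged to Ccl2 (log2 fold change -0.76, edgeR adjusted p = 0.388) and Ccl7 (-0.77, edgeR adjusted p = 0.468). Csf1 (0.29) and Kitl (0.26) had the smallest p among the relatives, Thbs1 (-0.56) and Sparc (-0.31) among the processing and binding genes, Grb2 (0.21) and Plcg1 (0.22) among the signalling genes, and Cblb (0.23) and Ptpn12 (0.10) among those that limit the receptors. Lrp1, a receptor that takes up many ligands, was at 293 and 297 normalized CPM in vehicle, 348 and 136 with DMSO, and 314 and 294 with BI6727. DMSO replicate 2 was the low library, and without DMSO replicate 1 Lrp1 was called higher with BI6727.

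**Figure D4:**
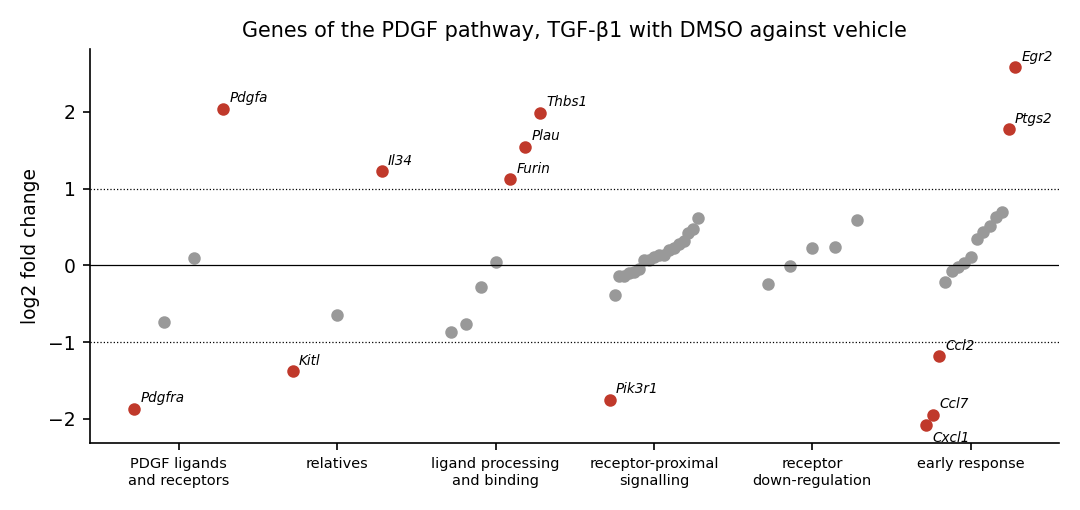
Log2 fold change (vertical axis) of TGF-β1 with DMSO against vehicle for every tested gene of the PDGF family and the pathway lists, 1 point per gene, ordered within a list by value. Red points with names were called (adjusted p below 0.01 and fold change above 2), grey points were not, and dotted lines mark a 2-fold change; among the 19 signalling genes Pik3r1 alone passed, and the early response genes went both ways.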

How the data were processed

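RNA depleted of rRNA from 6 NIH/3T3 libraries was sequenced as single-end reads. The authors aligned the reads to mm10 with Subjunc (Subread 1.6.4), assigned them to genes of Gencode M20 by featureCounts and deposited the raw counts. Their own tests used DESeq2 1.22.2 in R 3.6.1. The setting for strand is not given in the sources used here. Groups and replicate numbers came from the sample labels. Symbols were found for 54723 of 54752 identifiers.

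A gene was tested if more than 3 libraries had at least 10 CPM (9518 genes). The fit was made in R 4.3.3 with edgeR 4.0.16 (TMM scaling, quasi-likelihood test, all 6 libraries in 1 fit, no covariate, 3 residual degrees of freedom), with calls at a Benjamini-Hochberg adjusted p below 0.01 and a fold change above 2. The SE is the log2 fold change divided by the square root of F. To give normalized CPM, counts were divided by the TMM-scaled sum of the tested genes. Length trends were lowess fits (span 0.3) of log2 CPM (prior count 1) on length, used as offsets. The alternatives were DESeq2 1.42.0, its size factors, filterByExpr, no filter, fits of the compared groups alone, a replicate block, length offsets, each library left out, and a looser threshold. The procedure was tested on simulated data.

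The members, lists and tests were chosen with earlier results of these data known. Named genes were the 6 members, the 3 genes nearest to each tested member, the genes of each pathway list that were called in a comparison or, with fewer than 2 called, the 2 with the smallest p, and Acta2 and Tagln. Genes named outside this rule (Csf1 with DMSO, Plat, Lrp1, Nrp1, Pik3ca, Src, Jun, Myc, Egr1, Kit, Csf1r and the fibroblast and mural markers) were named after their values were seen. Promoter sequences are from RefSeq (GRCm38.p6), and positions are those of mm10. The result for 1 gene of the pathway lists is not reported here.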

Additional observations from a re-analysis of the deposited data

How the results depend on the processing

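Of the 12 log2 fold changes of the tested members, 7 kept their direction and their side of the threshold under all 14 alternatives. For Pdgfra, leaving out 1 library moved the log2 fold change of TGF-β1 with DMSO against vehicle between -2.35 and -1.50, with the call lost without either vehicle library. That of TGF-β1 with BI6727 against vehicle lay between -1.85 and -1.76, with the call lost without any vehicle or BI6727 library. That of BI6727 against DMSO lay between -0.30 and 0.54, and turned to -0.30 without DMSO replicate 2. For Pdgfrb, the range was -1.17 to -0.39 with DMSO against vehicle, with a call gained without DMSO replicate 1, and -1.30 to -1.09 with BI6727 against vehicle, with the call lost without any vehicle or BI6727 library. The number of members called lower went from 0 to 2 in both comparisons with vehicle. The fits that lost a call had 1 library fewer and keep 2 residual degrees of freedom. Fits without a DMSO library, and of vehicle and BI6727 alone, also keep 2. In those fits the calls of Pdgfra and Pdgfrb with BI6727 against vehicle were kept. Among the pathway genes that the rule on named genes gives for BI6727 against DMSO, the log2 fold change turned for Cblb (-0.058 without DMSO replicate 2, 0.57 without DMSO replicate 1) and Ptpn12 (-0.047 without DMSO replicate 2, -0.00077 without BI6727 replicate 2, at most 0.26 with another library left out).

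Same-numbered replicates did not deviate together: over 9518 genes, DMSO had r = -0.11 with vehicle and -0.26 with BI6727, and BI6727 had 0.047 with vehicle, so the numbers are not taken to pair the libraries. With the replicate number as a block, the log2 fold changes of Pdgfra were -1.90, 0.11 and -1.80 and those of Pdgfrb -0.76, -0.42 and -1.19 (DMSO against vehicle, BI6727 against DMSO, BI6727 against vehicle), no call of a member changed, and 224 genes were called higher and 229 lower with DMSO. Crossing the numbers of the DMSO libraries, an alternative chosen after seeing the data, gave 246 and 245. With no filter on low counts, 584 were called higher and 647 lower with DMSO against vehicle, 6 and 41 with BI6727 against DMSO, and 529 and 747 with BI6727 against vehicle. With filterByExpr the counts were 402 and 472, 0 and 0, and 366 and 542. Leaving out 1 library gave 79 to 305 higher and 48 to 487 lower with DMSO against vehicle, 0 to 50 and 0 to 17 with BI6727 against DMSO, and 81 to 237 and 82 to 300 with BI6727 against vehicle. For BI6727 against DMSO, DESeq2 gave 0 and 11 and length offsets 0 and 6. The design has 2 libraries a group, 1 cell line, and DMSO tied to TGF-β1 against vehicle.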
